A study of Mus musculus with 8 samples.

Results

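Lysosomal enzymes and membrane proteins were examined as a set of 38 genes named for their role in the lysosome. All 38 were found among the 47729 genes of the neural stem cell (NSC) table and the 40562 genes of the astrocyte table. They comprise 7 membrane proteins, 9 proteases, 10 glycosidases, 4 sulfatases, 6 lipid enzymes and activators, the secreted glycoprotein progranulin (Grn) and the transcription factor Tfeb.

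Cells came from 10-week-old C57BL/6 mice that were WT or carried S89G-DMP1, a knock-in that changes serine 89 of dentin matrix protein 1 (DMP1), a matrix protein that carries a glycosaminoglycan chain at this site, to glycine. The mutation was made in C57BL/6J embryonic stem cells. The comparison addressed what loss of this glycosylation does to gene expression in brain cells. Primary astrocyte cultures were grown from cortex in medium with serum and gave 1 library per genotype. NSCs were grown as neurospheres from the region around the lateral ventricle in serum-free medium and gave 3 libraries per genotype. The labels do not say whether these 3 came from separate mice or cultures, so p-values measure the spread between samples, which may be technical. The mutation is a single amino acid change carried in the germ line, so the read count of Dmp1 does not check the genotype labels. The astrocyte library labelled WT went against its label, with 8 counts of the astrocyte water channel Aqp4 against 4051 in the library labelled S89G-DMP1, and with 5406 CPM (counts scaled to library depth with TMM factors) of fibroblast and meningeal markers against 2145 CPM. The deposited labels were kept because the column names match them, and the direction of every astrocyte ratio follows these labels.

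The lysosome is the acidic compartment in which cells break down proteins, glycans, glycosaminoglycans and lipids. Its hydrolases are made in the endoplasmic reticulum and sorted to the lysosome, mostly by mannose 6-phosphate tags. Membrane proteins such as Lamp1 and Lamp2 line the lysosome's wall, and others, such as Mcoln1 and Npc1, move calcium, cholesterol and other cargo across it. In brain, inherited loss of many of these genes causes storage of undigested material and neurodegeneration. The transcription factor Tfeb and its relatives bind a short promoter element called CLEAR, built around the letters CACGTG, at many lysosomal genes.

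The promoters of the set are shown first because they are where this shared control is known to act. RefSeq promoter windows (GRCm38.p6, from 250 bases before to 50 bases after each start) matched 33 of the 38 genes, with 39 windows, and Asah1, Ctsb, Ctsh, Galns and Npc1 had none in the table. CACGTG, which reads the same on both strands, lay in 13 of these 39 windows (33.3%), against 7.15% of all 32851 promoter windows. The longer TCACGTG, read on either strand, lay in 28.2% of the set's windows and 3.77% of all, and TCACGTGA in 12.8% and 0.97%. The longer motifs contain the shorter ones. The stretches that follow are from 5 genes whose mRNA was lower in S89G-DMP1 NSCs (Ctsa, Ctsd, Ctsf, Gaa and Lgmn) and from Lamp1 and Mcoln1, which did not pass the test. Each is written 5′ to 3′ on the gene's strand, and capitals mark CACGTG with a preceding T or a following A where these are present.
Ctsa, chr2:164833739-164833772 (+ strand): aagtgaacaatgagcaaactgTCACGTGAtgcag
Ctsd, chr7:142387898-142387947 (- strand): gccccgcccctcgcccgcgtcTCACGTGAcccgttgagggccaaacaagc
Ctsf, chr19:4855064-4855113 (+ strand): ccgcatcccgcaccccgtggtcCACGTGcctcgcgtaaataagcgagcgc
Gaa, chr11:119267801-119267850 (+ strand): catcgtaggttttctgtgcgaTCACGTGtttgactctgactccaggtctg
Lgmn, chr12:102439114-102439163 (- strand): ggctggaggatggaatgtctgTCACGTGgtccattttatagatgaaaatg
Lamp1, chr8:13159078-13159160 (+ strand): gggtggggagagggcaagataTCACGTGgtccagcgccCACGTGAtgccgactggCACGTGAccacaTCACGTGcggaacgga
Mcoln1, chr8:3500426-3500501 (+ strand): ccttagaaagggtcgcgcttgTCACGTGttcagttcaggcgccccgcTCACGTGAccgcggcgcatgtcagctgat
The first motif began 98 bases before the start of Ctsd in the stretch shown, 140 before Gaa, 79 before Ctsf, 49 before Lgmn and 12 before Ctsa. Lamp1 held 4 copies and Mcoln1 held 2. The windows of Ctsd and Ctsa also held 2 copies each, of which the stretches shown hold 1. Of the 11 genes called lower in NSCs, 5 (45.5%) had CACGTG in a window, and of the 22 matched genes not called, 8 (36.4%) did. Scarb2, Psap, Cd63, Grn, Ctsz and Manba had no match, which says only that these letters were not in the window.

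The lysosomal genes were expressed in every library. Levels per length are given for NSCs as deposited TPM, transcript abundance scaled by length and depth. Among the 3 WT NSC libraries the highest was Psap, the precursor of the saposins that help lysosomal enzymes reach their lipids, at 768, 974 and 810.0 TPM. Cd63, a tetraspanin of late endosomes and lysosomes, followed at 681, 700.3 and 672 TPM, then the aspartic protease Ctsd at 438, 449 and 436 TPM, Lamp1 at 251, 465 and 418 TPM and Lamp2 at 135, 147 and 117 TPM. Psap, Cd63 and Ctsd were separated in every library, as were Lamp1 and Lamp2, whereas Lamp1 overlapped with Ctsd and the mean for Lamp2 (133 TPM) was close to that of Scarb2 (131 TPM). Ctsh was the lowest at a mean of 3.91 TPM.

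In the WT astrocyte culture the level per length was deposited as FPKM, fragments scaled by gene length and library depth, which is not on the same scale as TPM. Ctsd led at 1900.3 FPKM, followed by Psap at 609, Lamp1 at 498, Cd63 at 477 and Grn at 388 FPKM. Ctsh, lowest of the 38 in NSCs, stood eleventh here at 217 FPKM, and Tfeb was lowest at 9.60 FPKM. Thus 4 of the 5 genes with the highest levels were shared between the NSCs and this culture. The culture carries the astrocyte label but held few counts of astrocyte markers other than Gja1.

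**Figure D1:**
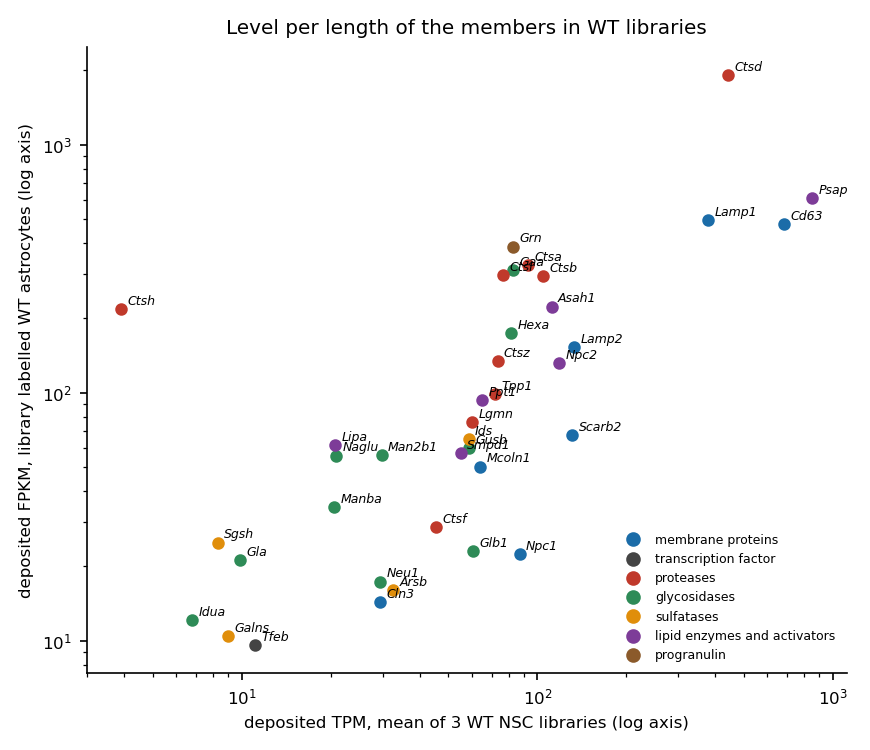
Level per length of each of the 38 lysosomal genes in WT libraries, coloured by role. The horizontal log axis is the mean TPM of 3 NSC libraries. The vertical log axis is FPKM of the 1 library labelled WT astrocytes, which held few counts of astrocyte markers other than Gja1. Psap, Cd63, Ctsd and Lamp1 sit at the upper right, and Ctsh sits apart at the left, at 3.91 TPM and 217 FPKM.

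In S89G-DMP1 NSCs, 11 of the 38 lysosomal genes were lower than in WT and none was higher. These were 5 proteases (Ctsd, Ctsf, Lgmn, Ctsz and Ctsa), the glycosidases Gaa and Manba, the membrane proteins Scarb2 and Cd63, the saposin precursor Psap and progranulin. At the ends of their range, Psap fell by 13.3% and Manba fell by 42.3%. The set's summed level was 4069, 4248 and 4119 CPM in the WT libraries against 3603, 3599 and 3744 CPM in S89G-DMP1, so the groups did not overlap. Without the 5 genes of highest mean CPM (Psap, Ctsd, Lamp1, Scarb2 and Cd63), the sums were 2083, 2054 and 1993 CPM against 1845, 1813 and 1893 CPM.

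The test was edgeR's quasi-likelihood test over all 11194 genes that passed the filter on low counts, and a call means a Benjamini-Hochberg adjusted p under 0.05. All 38 lysosomal genes passed that filter. The 11 called lower are 28.9% of the set, against 8.76% of all tested genes called lower, and 7.08% of all genes were called higher. As the set was chosen with earlier results of these data known, these shares are a description. For the count of 0 higher, DESeq2 also gave 0 and an unadjusted p under 0.05 gave 1 (Ctsh). Unadjusted, 16 were lower. Across the set 29 log2 fold changes were negative and 9 positive, with a median of -0.18 against 0.00 for all genes. In 14 of the 38 the 3 S89G-DMP1 libraries all lay below the 3 WT libraries, against 16.0% of all genes. DESeq2 called 7 of the 38 lower, and limma on log2(TPM + 1) called 1 (Ctsd).

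Because these are bulk cultures, fewer cells of a type and less RNA per cell cannot be told apart. None of the 13 microglia and macrophage markers passed the filter in NSCs: their summed level was 0.80 to 1.69 CPM in WT against 0.40 to 2.11 CPM in S89G-DMP1, and Csf1r, Cx3cr1, Tmem119 and Itgam were at 0 counts in all 6 libraries. Of 10 astrocyte markers, 7 were tested and 4 (Aldh1l1, Gja1, Mlc1 and Slc1a3) were higher in S89G-DMP1, with the list's sum at 1641 to 1695 CPM in WT against 2270.0 to 2322 CPM in S89G-DMP1. Of 9 NSC markers, 8 were tested and 3 were higher, with sums of 4985 to 5268 CPM and 5543 to 5602 CPM. Neuronal markers summed to 77.9 to 87.8 CPM in WT against 28.2 to 32.5 CPM in S89G-DMP1. Of 3 tested, the synaptic vesicle protein Syt1 was called lower, while 2 had positive log2 fold changes and were not called (median 0.24). Of the mural markers only Cspg4, which oligodendrocyte precursors also express, was tested, and it was called lower, with sums of 173 to 177 CPM and 109 to 134 CPM. Pdgfra, listed with fibroblasts, was called lower and the endothelial Flt1 higher, both in lists that summed to under 30 CPM in every library. The part of these shifts in the lysosomal result was not tested.

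**Figure D2:**
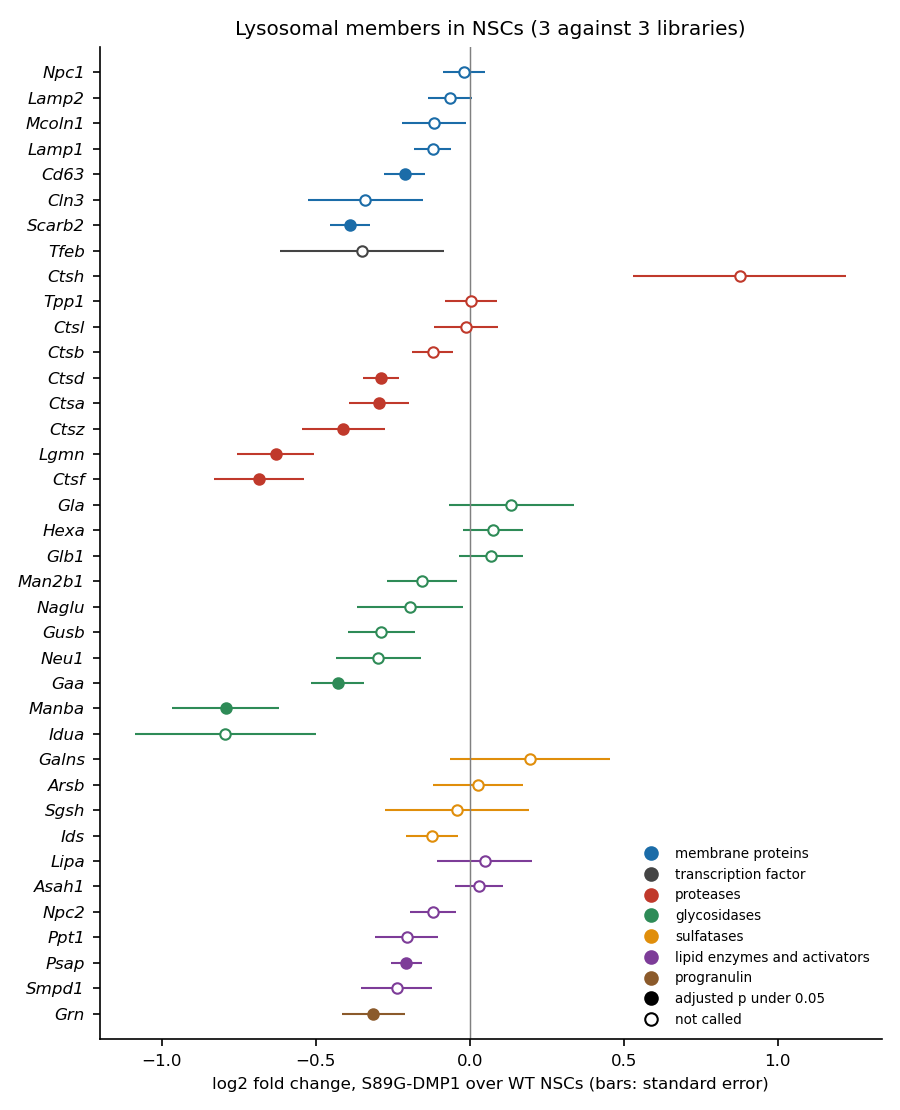
Log2 fold change of each lysosomal gene in S89G-DMP1 over WT NSCs (horizontal axis, bars are the standard error, 3 libraries per genotype), grouped and coloured by role. Filled points are the 11 genes with an edgeR adjusted p under 0.05, and all of them lie left of 0.

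Among the 7 membrane proteins, 2 were called lower and all 7 log2 fold changes were negative. Scarb2 (ENSMUSG00000029426, chromosome 5), an abundant lysosomal membrane protein that also acts as a sorting receptor, measured 255, 268 and 238 CPM in WT against 182, 193 and 207 CPM in the S89G-DMP1 libraries. Every S89G-DMP1 library was lower than every WT library, and Scarb2 fell by 0.39 on the log2 scale (SE 0.06, edgeR adjusted p = 4.5e-06). Cd63 (ENSMUSG00000025351, chromosome 10) measured 209.9, 208 and 215 CPM in WT against 174, 175 and 198 CPM in the S89G-DMP1 libraries, also without overlap, and fell by 0.21 on the log2 scale (SE 0.07, edgeR adjusted p = 0.019). S89G-DMP1 library 3 was nearest to WT, and a processed copy of the gene, Cd63-ps, had 8 counts over the WT libraries and 7 over S89G-DMP1. The call on Cd63 was lost without WT library 3 (adjusted p = 0.0717), S89G-DMP1 library 1 (0.117) or S89G-DMP1 library 2 (0.113), and over all alternatives the adjusted p ranged from 0.00538 to 0.23. Lamp1 measured 331, 395 and 367 CPM in WT against 343, 313 and 351 CPM in the S89G-DMP1 libraries, and the groups overlapped (log2 fold change -0.12, SE 0.06, edgeR adjusted p = 0.18). In the deposited TPM, Lamp1 stood at 251, 465 and 418 in WT against 265, 231 and 247 in the S89G-DMP1 libraries, which also overlapped, and limma on log2(TPM + 1) gave a larger log2 fold change of -0.56 (adjusted p = 0.326). Lamp1 became a call only without WT library 1 (adjusted p = 0.0311, range over all alternatives 0.0311 to 0.629). Lamp2 likewise overlapped, at 165, 162 and 151 CPM in WT against 159, 137 and 159.6 CPM in the S89G-DMP1 libraries (log2 fold change -0.06, SE 0.07, edgeR adjusted p = 0.61). The calcium channel Mcoln1, the Batten disease protein Cln3 and the cholesterol exporter Npc1 were not called, with log2 fold changes of -0.12, -0.34 and -0.02.

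The proteases held the most calls, 5 of 9. Ctsd (ENSMUSG00000007891, chromosome 7), which cleaves proteins broadly at acid pH, measured 339, 352 and 349.9 CPM in WT against 273, 283 and 296 CPM in the S89G-DMP1 libraries. The groups did not overlap, and Ctsd fell by 0.29 on the log2 scale (SE 0.06, edgeR adjusted p = 0.00014). Lgmn (ENSMUSG00000021190, chromosome 12), an endopeptidase that cuts after asparagine and processes cathepsins, measured 45.9, 47.01 and 47.5 CPM in WT against 28.6, 33.4 and 28.9 CPM in the S89G-DMP1 libraries. The WT libraries were nearly equal and all above the S89G-DMP1 libraries, and Lgmn fell by 0.63 on the log2 scale (SE 0.13, edgeR adjusted p = 0.00012). The cysteine protease Ctsf (ENSMUSG00000083282, chromosome 19) measured 35.4, 35.7 and 31.95 CPM in WT against 19.8, 23.97 and 20.5 CPM in the S89G-DMP1 libraries, and it fell by 0.68 on the log2 scale (SE 0.15, edgeR adjusted p = 0.00035) without overlap.

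Ctsz (ENSMUSG00000016256, chromosome 2), a carboxypeptidase of the cysteine protease family, measured 38.8, 38.8 and 43.5 CPM in WT against 28.6, 25.3 and 36.9 CPM in the S89G-DMP1 libraries and fell by 0.41 on the log2 scale (SE 0.13, edgeR adjusted p = 0.026). S89G-DMP1 library 3 lay just below the lowest WT library, and the call was lost without WT library 3 (adjusted p = 0.122), S89G-DMP1 library 1 (0.0964) or S89G-DMP1 library 2 (0.196), with a range over all alternatives of 0.00511 to 0.296. Ctsa (ENSMUSG00000017760, chromosome 2), a serine carboxypeptidase that also protects Neu1 and Glb1, measured 78.4, 72.3 and 88.7 CPM in WT against 67.8, 59.5 and 67.4 CPM in the S89G-DMP1 libraries and fell by 0.30 on the log2 scale (SE 0.10, edgeR adjusted p = 0.026). WT library 3 was its highest value, and the call was lost without WT library 3 (adjusted p = 0.207) or S89G-DMP1 library 2 (0.158), with a range of 0.0116 to 0.415. Ctsz and Ctsa overlap genes on the opposite strand, and the strand setting of the counting was not given. Nelfcd, beside Ctsz, had 611 counts over the WT libraries and 537 over the S89G-DMP1 libraries, while Pltp, beside Ctsa, had 22 and 20.

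Ctsb, Ctsl and the tripeptidyl peptidase Tpp1 were not called, with log2 fold changes of -0.12, -0.01 and 0.00. Ctsh, a cysteine protease with aminopeptidase activity, measured 3.37, 4.27 and 3.59 CPM in WT against 8.85, 8.99 and 3.21 CPM in the S89G-DMP1 libraries. Its counts were only 8, 11 and 9 in WT and 21, 21 and 8 in S89G-DMP1, so that S89G-DMP1 library 3 lay below all 3 WT libraries and the other two above them. It was not called (log2 fold change 0.88, SE 0.35, edgeR adjusted p = 0.076), and without S89G-DMP1 library 3 the edgeR adjusted p was 0.01 (range over all alternatives 0.01 to 0.452).

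Of the 10 glycosidases, 2 were called lower, 7 log2 fold changes were negative and 3 positive. Gaa (ENSMUSG00000025579, chromosome 11), which releases glucose from glycogen, measured 121, 109.5 and 96.3 CPM in WT against 78.8, 79.6 and 83.8 CPM in the S89G-DMP1 libraries. The S89G-DMP1 libraries were close together and below every WT library, and Gaa fell by 0.43 on the log2 scale (SE 0.09, edgeR adjusted p = 0.00016). Manba (ENSMUSG00000028164, chromosome 3), the beta-mannosidase that ends the breakdown of N-linked glycans, measured 25.3, 30.3 and 21.6 CPM in WT against 15.6, 14.98 and 14.04 CPM in the S89G-DMP1 libraries. It fell by 0.79 on the log2 scale (SE 0.17, edgeR adjusted p = 0.00048), the largest decrease among the 11 called. Idua, which removes iduronic acid from heparan and dermatan sulfate, had an equal fold change but few counts and overlapping groups, at 7.59, 11.7 and 9.59 CPM in WT against 6.74, 7.70 and 2.41 CPM in the S89G-DMP1 libraries (log2 fold change -0.79, SE 0.29, edgeR adjusted p = 0.054). Idua passed the threshold without WT library 1 (adjusted p = 0.0297) or S89G-DMP1 library 2 (0.0258), with a range over all alternatives of 0.0258 to 0.725. Gusb, the beta-glucuronidase, measured 60.3, 54.4 and 54.7 CPM in WT against 44.2, 46.6 and 47.7 CPM in the S89G-DMP1 libraries and did not overlap, yet missed the threshold (log2 fold change -0.29, SE 0.11, edgeR adjusted p = 0.063). The sialidase Neu1 was also without overlap (log2 fold change -0.30, SE 0.14, edgeR adjusted p = 0.14). Hexa, Glb1, Gla, Man2b1 and Naglu overlapped between genotypes, with log2 fold changes from -0.20 to 0.14.

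The 4 sulfatases, which remove sulfate from glycosaminoglycans, gave no call. Log2 fold changes were -0.12 for Ids, -0.04 for Sgsh, 0.03 for Arsb and 0.20 for Galns, and all 4 overlapped between genotypes. The fuller list of 15 glycosaminoglycan-degrading enzymes, which takes in these sulfatases and several of the glycosidases, had 13 tested genes, of which 0 were called by edgeR or DESeq2 and 3 were lower at an unadjusted p under 0.05, with a median of -0.12.

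Among the lipid enzymes and activators, 1 of 6 was called. Psap (ENSMUSG00000004207, chromosome 10) measured 852, 971 and 956 CPM in WT against 787, 822 and 800.2 CPM in the S89G-DMP1 libraries, and it fell by 0.21 on the log2 scale (SE 0.05, edgeR adjusted p = 0.0018). The difference was small beside its level but without overlap, and the first WT library was nearest to S89G-DMP1. On log2(TPM + 1) the log2 fold change of Psap was larger, -0.42 (limma adjusted p = 0.164), from 768, 974 and 810.0 TPM in WT and 578, 680.0 and 643 TPM in the S89G-DMP1 libraries. Ppt1, which removes fatty acids from proteins, did not overlap either but was not called (log2 fold change -0.20, SE 0.10, edgeR adjusted p = 0.18). The cholesterol carrier Npc2, acid sphingomyelinase Smpd1, acid ceramidase Asah1 and acid lipase Lipa overlapped, with log2 fold changes from -0.24 to 0.05.

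Grn (ENSMUSG00000034708, chromosome 11) encodes progranulin, which is cleaved to granulins in the lysosome. It measured 73.3, 76.1 and 63.1 CPM in WT against 60.2, 56.5 and 54.5 CPM in the S89G-DMP1 libraries, without overlap, and fell by 0.31 on the log2 scale (SE 0.10, edgeR adjusted p = 0.024). The call on Grn was lost without WT library 1 (adjusted p = 0.0677), WT library 2 (0.135), S89G-DMP1 library 2 (0.0739) or S89G-DMP1 library 3 (0.105), and over all alternatives the adjusted p ranged from 0.00918 to 0.274. Fam171a2, which overlaps it on the opposite strand, had 439 counts over the WT libraries and 393 over the S89G-DMP1 libraries. Tfeb itself was low, at 7.59, 8.93 and 11.6 CPM in WT against 9.69, 6.85 and 5.62 CPM in the S89G-DMP1 libraries, overlapped between genotypes and was not called (log2 fold change -0.35, SE 0.27, edgeR adjusted p = 0.42).

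**Figure D3:**
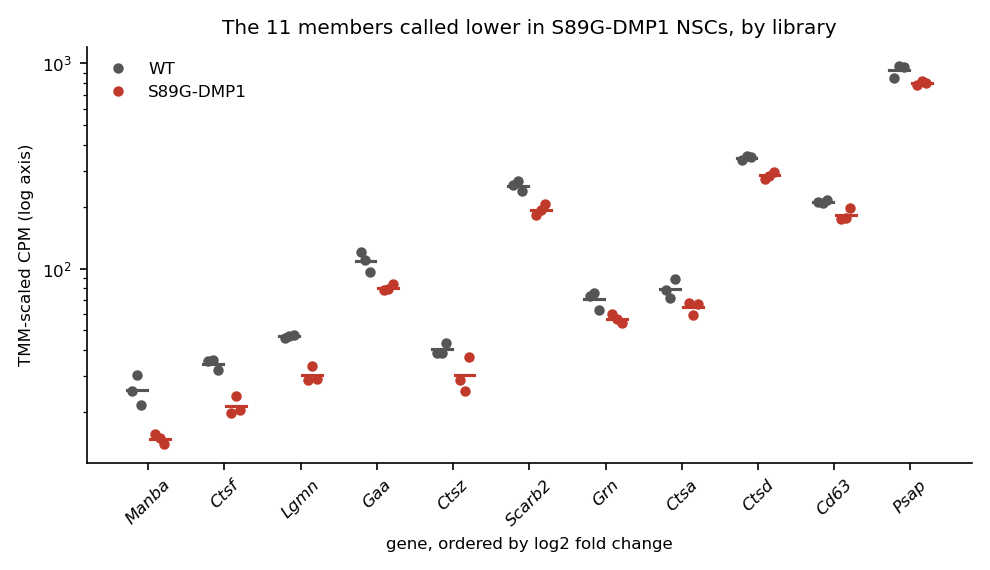
CPM, scaled by TMM factors, of the 11 lysosomal genes called lower in S89G-DMP1 NSCs (vertical log axis), with 1 point per library and a line at each group's mean. In each gene the 3 S89G-DMP1 points lie below the 3 WT points, and Psap shows the narrowest relative gap, with the highest S89G-DMP1 library at 822 CPM and the lowest WT library at 852 CPM.

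Other genes of the pathway were taken from lists that hold none of the 38, apart from the glycosaminoglycan list. Of 68 further lysosomal genes 62 were tested, and 6 (9.68%) were lower and 1 higher, with a median log2 fold change of -0.08. Over all tested genes 8.76% were called lower and 7.08% higher, so the list's share lower was near that of all genes. Pla2g15, a lysosomal phospholipase, measured 16.9, 12.04 and 13.2 CPM in WT against 7.16, 7.28 and 7.62 CPM in the S89G-DMP1 libraries and fell by 0.92 on the log2 scale (SE 0.24, edgeR adjusted p = 0.0031). The sorting receptor Igf2r, which binds mannose 6-phosphate, measured 103, 117 and 105 CPM in WT against 78.8, 83.9 and 83.8 CPM in the S89G-DMP1 libraries and fell by 0.40 on the log2 scale (SE 0.08, edgeR adjusted p = 0.00029). In both genes the groups did not overlap and the edgeR call held without any single library. With DESeq2, Pla2g15 was not called (adjusted p = 0.113) and Igf2r was the only gene of the list called lower (0.0215), while limma on log2(TPM + 1) called neither (0.0883 and 0.134). Of the 16 proton pump subunits, all tested, 1 was lower (Atp6v0a1, log2 fold change -0.22, SE 0.07, edgeR adjusted p = 0.015).

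Regulators and autophagy genes numbered 37, of which 36 were tested, and 8 (22.2%) were lower and 0 higher by edgeR (0 higher by DESeq2), with a median of -0.14. Over all tested genes 8.76% were called lower and 7.08% higher. As this list too was chosen with earlier results known, its share is a description. At an unadjusted p under 0.05, 2 were higher. Mitf, a relative of Tfeb, measured 7.59, 8.93 and 8.79 CPM in WT against 2.11, 0.43 and 3.61 CPM in the S89G-DMP1 libraries and fell by 1.996 on the log2 scale (SE 0.38, edgeR adjusted p = 5e-05). Its S89G-DMP1 counts were only 5, 1 and 9, against 18, 23 and 22 in WT. Zkscan3, known as a repressor of lysosomal and autophagy genes, measured 143, 134 and 139 CPM in WT against 79.6, 81.7 and 77.01 CPM in the S89G-DMP1 libraries and fell by 0.80 on the log2 scale (SE 0.08, edgeR adjusted p = 2.1e-12), with no overlap. The autophagy membrane protein Atg9a fell by 0.54 on the log2 scale (SE 0.14, edgeR adjusted p = 0.0049), and Gabarapl1, a protein of the autophagosome membrane, fell by 0.37 on the log2 scale (SE 0.09, edgeR adjusted p = 0.0016). Neither was called with DESeq2 (adjusted p = 0.143 for Atg9a and 0.0606 for Gabarapl1). On log2(TPM + 1) Atg9a had a log2 fold change of only -0.24 (limma adjusted p = 0.609), and Gabarapl1 was called (0.0348). The other 4 called lower were Ulk1, Wipi2, Sqstm1 and Mtor.

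In the primary astrocyte cultures, where 1 library per genotype allowed no test, 8 of the 38 lysosomal genes were lower in S89G-DMP1 by 2-fold or more and none was higher by as much. These were the proteases Ctsh and Ctsl, the glycosidases Gla, Gaa, Manba and Hexa, the sulfatase Sgsh and the cholesterol carrier Npc2. Over the set, 14523 CPM in the WT culture stood against 10221 CPM in S89G-DMP1, from libraries of 14008670 and 13016924 counts. The 8 are 21.1% of the set, against 12.8% of the 15680 counted genes lower by that much and 17.3% higher. On the TMM scale 33 log2 ratios were negative and 5 positive, with a median of -0.48. Scaled by library size alone, 24 were negative and 14 positive with a median of -0.18, 3 were lower by 2-fold or more (Ctsh, Sgsh and Gla) and 1 was higher (Cln3). That scaling moved the median of all counted genes by 0.29, from 0.01 to 0.30. The set's median lay below that of all genes on either scale. As rescaling shifts all log2 ratios by nearly the same amount, the second scale is no further check of this.

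Marker genes showed that the astrocyte cultures differed in more than genotype. In the WT culture, defining astrocyte markers were nearly absent, with 8 counts of Aqp4, 8 of Slc1a3 and 2 of Mlc1, against 4051, 3877 and 2399 in S89G-DMP1. Of 9 counted astrocyte markers, 7 were at least 2-fold higher in S89G-DMP1, and the list summed to 118 CPM in WT against 1211 CPM in S89G-DMP1. NSC markers summed to 834 and 2213 CPM. Fibroblast and meningeal markers went the other way, 7 of 9 at least 2-fold lower, with sums of 5406 and 2145 CPM. Mural markers were mixed, 3 of 6 lower and 1 (Acta2) higher, and their sum of 1921 and 2674 CPM followed Acta2, at 723 and 2471 CPM. The 3 lower were Pdgfrb at 929.9 and 158 CPM, Rgs5 at 192 and 2.71 CPM and Myh11 at 31.8 and 2.57 CPM. Of 5 counted endothelial markers 3 were at least 2-fold lower and 1 (Kdr) higher, and their sum of 193 and 71.0 CPM followed Cdh5, at 152 and 1.60 CPM. Microglia and macrophage markers were counted in both cultures, 3 of 13 at least 2-fold higher and 2 lower, at 888 and 1145 CPM. The oligodendrocyte lineage gave 49.5 and 91.2 CPM and neuronal markers 89.2 and 108 CPM. Xist, transcribed from the inactive X chromosome, had 12172 counts in WT and 74 in S89G-DMP1, while the Y-linked Ddx3y had 0 and 1277. All 6 NSC libraries held both transcripts. Another Y-linked gene, Uba1y, was called lower in S89G-DMP1 NSCs (log2 fold change -5.42, SE 0.37, edgeR adjusted p = 4.2e-19). Its counts were 67, 58 and 68 in WT against 3, 1 and 0 in S89G-DMP1. The Y-linked Ddx3y, Eif2s3y, Kdm5d and Uty were not called in NSCs. The cause of the Uba1y difference was not tested. Lamp2, Gla and Ids are on the X chromosome, and without them the astrocyte comparison kept 7 members at least 2-fold lower. Genotype, cell composition and sex cannot be told apart in the lysosomal values of the astrocyte cultures.

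Ctsh had the largest difference, 236 CPM in the WT culture and 43.6 CPM in the S89G-DMP1 culture, a level 5.41 times higher in WT. Its log2 ratio was -2.43 (interval -2.57 to -2.31), where intervals here and in what follows are 95% exact binomial intervals that cover counting error only. Ctsl, a cysteine protease, was at 648 CPM in the WT culture and 271 CPM in the S89G-DMP1 culture, a log2 ratio of -1.26 (interval -1.32 to -1.20). Among glycosidases, Gla, which cleaves alpha-galactose from glycolipids, was at 41.1 CPM in the WT culture and 16.5 CPM in the S89G-DMP1 culture, a log2 ratio of -1.30 (interval -1.54 to -1.09). Gaa was at 504 CPM in the WT culture and 216 CPM in the S89G-DMP1 culture, a log2 ratio of -1.22 (interval -1.28 to -1.16).

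Manba stood at 51.7 CPM in the WT culture and 22.7 CPM in the S89G-DMP1 culture, a log2 ratio of -1.18 (interval -1.39 to -0.995), an interval that reaches just inside 2-fold. Hexa, the alpha subunit of beta-hexosaminidase, stood at 359 CPM in the WT culture and 161 CPM in the S89G-DMP1 culture, a log2 ratio of -1.16 (interval -1.23 to -1.08). Over these 4 glycosidases the level was 2.23 to 2.47 times higher in the WT culture. Sgsh, which removes sulfate from heparan sulfate, stood at 69.7 CPM in the WT culture and 26.9 CPM in the S89G-DMP1 culture, a log2 ratio of -1.37 (interval -1.55 to -1.20). Npc2 stood at 474 CPM in the WT culture and 201 CPM in the S89G-DMP1 culture, a log2 ratio of -1.23 (interval -1.30 to -1.17). Of the 8, Ctsh, Gla, Sgsh, Ctsl, Npc2, Gaa and Hexa had intervals that lay wholly beyond 2-fold.

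Abundance by CPM did not mark out the members inside 2-fold. Ctsl, Gaa and Npc2, all beyond it, stood above Lamp2 in the WT culture, at 648, 504 and 474 CPM. Ctsb, at 1546 CPM in the WT culture, had a log2 ratio of -0.47. The members that follow, which had the highest levels per length in NSCs or the WT astrocyte culture, were inside 2-fold. Ctsd was at 2862 CPM in the WT culture and 2306 CPM in the S89G-DMP1 culture, a log2 ratio of -0.31, and Psap at 1778 CPM in the WT culture and 1419 CPM in the S89G-DMP1 culture, a log2 ratio of -0.33. By library size alone these ratios were -0.02 and -0.03. Lamp1 was at 1243 CPM in the WT culture and 798 CPM in the S89G-DMP1 culture (-0.64), Cd63 at 484 CPM in the WT culture and 278 CPM in the S89G-DMP1 culture (-0.80) and Lamp2 at 441 CPM in the WT culture and 343 CPM in the S89G-DMP1 culture (-0.36). Grn, among the highest per length in this culture, was at 401 CPM in the WT culture and 330.1 CPM in the S89G-DMP1 culture, with a log2 ratio of -0.28 that became 0.01 by library size.

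Higher values in S89G-DMP1 were found for 5 members. Cln3 was at 17.4 CPM in the WT culture and 29.3 CPM in the S89G-DMP1 culture, a log2 ratio of 0.75 (interval 0.52 to 0.997). Lgmn was at 130.1 CPM in the WT culture and 191 CPM in the S89G-DMP1 culture, a log2 ratio of 0.56 (interval 0.47 to 0.65). Tfeb was at 10.5 CPM in the WT culture and 15.4 CPM in the S89G-DMP1 culture, a log2 ratio of 0.55 (interval 0.24 to 0.88). Npc1 and Arsb were higher by 1.12-fold and 1.08-fold, and the interval of Arsb included 0. These 5 were also higher by library size.

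**Figure D4:**
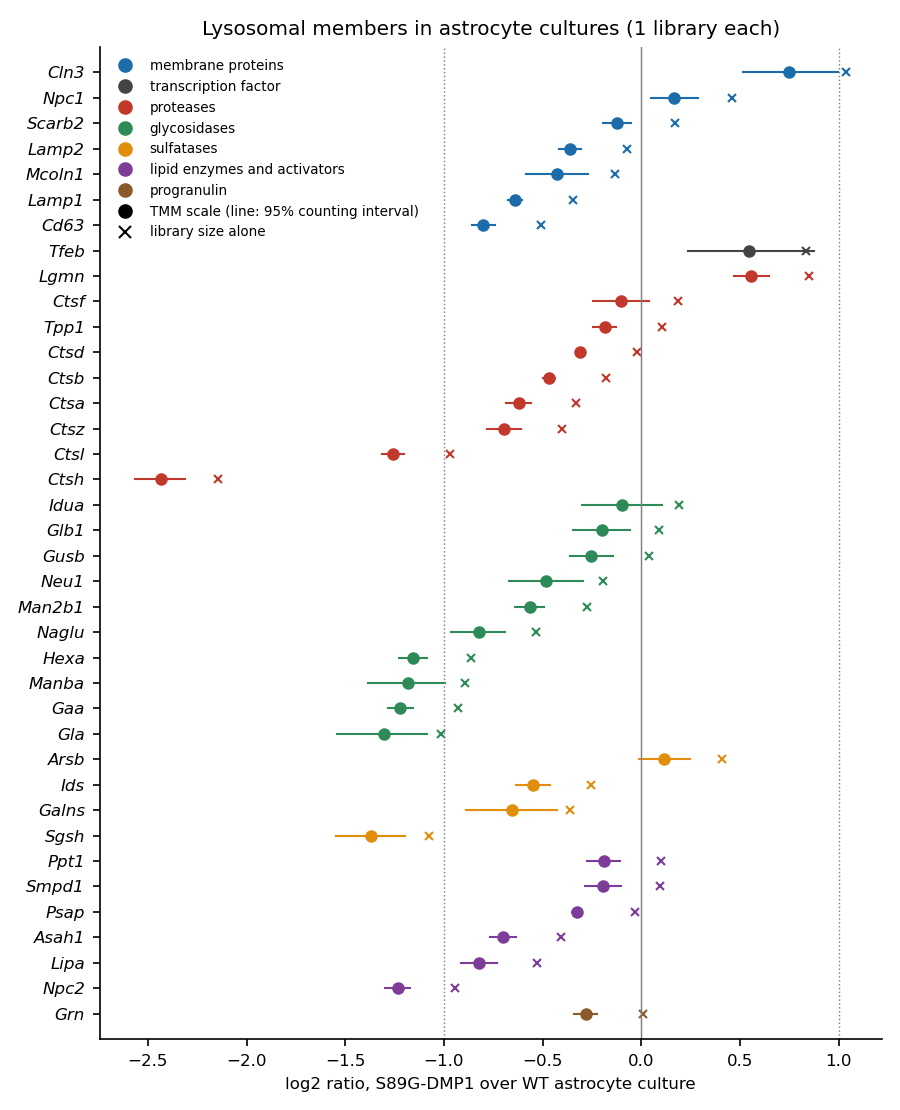
Log2 ratio of each lysosomal gene in the S89G-DMP1 over the WT astrocyte culture (horizontal axis, 1 library each), as points on the TMM scale with 95% counting intervals and as crosses by library size alone, grouped by role. Dotted lines mark 2-fold, and 8 genes lie left of the lower line on the TMM scale, Ctsh farthest at -2.43.

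Among the other lists in the astrocyte cultures, 12 of 67 counted further lysosomal genes (17.9%) were at least 2-fold lower and 4 higher, with a median log2 ratio of -0.43. Of 37 regulators and autophagy genes, 5 (13.5%) were at least 2-fold lower and 0 higher (median -0.35). Of 15 glycosaminoglycan-degrading enzymes, 5 (33.3%) were lower and 1 higher (median -0.61). Over all counted genes 12.8% were lower and 17.3% higher by as much, so the share of regulators lower was near that of all genes. The value of Ctsk, a collagen-degrading cathepsin named here after its value was seen, was 1085 counts in WT and 34 in S89G-DMP1.

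Set side by side, the comparisons in NSCs and astrocyte cultures share no libraries. Of the 11 genes called lower in NSCs, 10 had a negative log2 ratio in the astrocyte cultures on the TMM scale and 7 by library size alone. Of all 38, 33 and 24 were negative on these scales. Spearman's rank correlation between the log2 changes in NSCs and in the cultures was -0.39 across the 38 genes, which are not independent replicates and share their libraries. On the TMM scale, only Gaa and Manba were both called lower in NSCs and at least 2-fold lower in the astrocyte cultures. By library size alone their log2 ratios in the astrocyte cultures were -0.93 and -0.89, inside 2-fold. Lgmn was lower in NSCs, with a log2 fold change of -0.63, and higher in the S89G-DMP1 astrocyte culture, at 0.56. Ctsh was at 0.88 in NSCs, not called, and at -2.43 in the astrocyte cultures. Scarb2 and Ctsf, both called in NSCs, were at -0.12 and -0.10 in the astrocyte cultures and above 0 by library size.

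**Figure D5:**
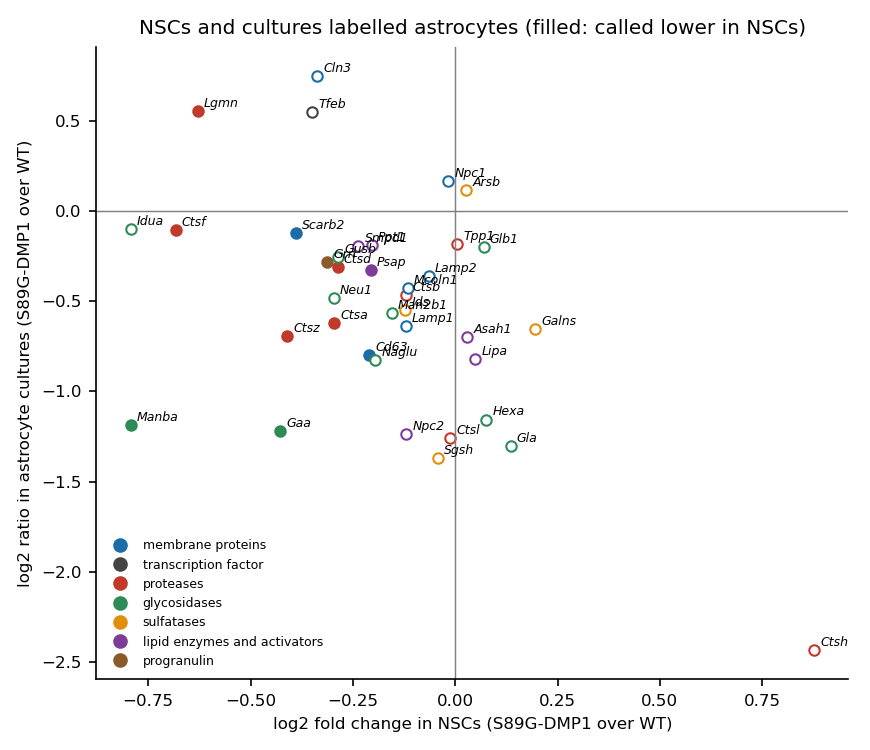
Log2 fold change in NSCs (horizontal axis, 3 libraries per genotype) against log2 ratio in astrocyte cultures on the TMM scale (vertical axis, 1 library per genotype) for the 38 lysosomal genes, coloured by role and filled where called lower in NSCs. Gaa and Manba lie at the lower left, Lgmn at the upper left, and Ctsh alone at the lower right.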

How the data were processed

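Total RNA of 2 astrocyte cultures and 6 NSC samples was sequenced on Illumina machines, and the authors deposited gene tables. In the astrocyte files, raw counts and FPKM values, the authors discarded reads that held adapter sequence, uncalled bases or poor quality, and aligned pairs with TopHat 2.0.9 and Bowtie 2.0.6. The counting program, build and annotation are not given in the sources used here. For the NSC files, deposited raw counts and TPM values, the submitters' processing notes name HISAT2, featureCounts, StringTie and build GRCm38, without roles or versions. NSC libraries held 2354615 to 2588130 counts, so a level of 3 counts is about 1.17 to 1.28 CPM.

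Gene IDs were named from GENCODE M21 (GRCm38), and 38 of 38 members matched. NSC counts were filtered by filterByExpr, scaled by TMM and tested with edgeR 4.0.16 (R 4.3.3), with 18 other genes listed at 0 TPM despite a mean of at least 100 counts. DESeq2 1.42.0, limma 3.58.1 on log2(TPM + 1) and log2(TPM + 0.1), other scalings and filters, a replicate block and leaving out each library were alternatives. Astrocyte log2 ratios were taken on CPM scaled by TMM (prior count 2), untested, for genes that reached 10 counts in 1 or both libraries. The TMM factors of the astrocyte libraries were 0.904 in WT and 1.11 in S89G-DMP1. The edgeR step was tested on simulated data.

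Full statistics are given for members past the NSC threshold or at least 2-fold apart in astrocyte cultures, values for the 5 members with the highest level per length, and, in other lists, for the 4 called genes with the largest fold change; further genes named were chosen after their values were seen. Some genes of these lists are not reported here by name. The members and lists were chosen with earlier results of these data known. NSC libraries of 1 genotype differed by somewhat more than sampling noise and were counted separately. Averaged over 11136 genes, chi-square between such libraries ran from 1.07 (S89G-DMP1 libraries 1 and 2) to 1.51 (WT libraries 1 and 2). Between genotypes the average ran from 3.17 to 4.06. This excess within a genotype does not show that the libraries came from separate mice or cultures.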

Additional observations from a re-analysis of the deposited data

Results flagged for a closer look

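Lgmn had opposite signs in the NSC and astrocyte-culture comparisons. All 3 S89G-DMP1 NSC libraries lay below all 3 WT libraries (log2 fold change -0.63), whereas the log2 ratio of the astrocyte cultures was 0.56, or 0.85 by library size alone. With 1 astrocyte library per genotype, the difference between the comparisons was not tested. The astrocyte libraries also differed in markers, with 118 CPM of astrocyte markers in WT against 1211 CPM in S89G-DMP1 and 5406 against 2145 CPM of fibroblast and meningeal markers, and in sex, with 12172 and 74 counts of Xist, so genotype, cell composition and sex cannot be told apart in the ratio.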

How the results depend on the processing

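The count of lysosomal genes called lower in NSCs, 11 in the main test, was 7 with DESeq2, 1 with limma on log2(TPM + 1) and 0 with limma on log2(TPM + 0.1), and the count called higher stayed at 0 with each; the cause was not tested. Leaving out 1 library at a time gave 8 to 12 lower and 0 to 1 higher, the 1 being Ctsh without S89G-DMP1 library 3. Scaling by RLE factors or library size, no filter, and at least 10 counts in every library each gave 11. The replicate block gave 12, Idua being added (adjusted p = 0.0495), and the deviations of same-numbered libraries correlated at 0.028, -0.0099 and -0.017, so the numbers did not pair them. Scarb2, Lgmn, Ctsd, Gaa, Ctsf, Manba and Psap were called with DESeq2 and without any single library. Over all genes, 981 lower and 792 higher became 422 and 313 with DESeq2, 107 and 38 on log2(TPM + 1), and 85 and 31 on log2(TPM + 0.1). The 6 further lysosomal genes called lower became 1 with DESeq2 and 0 by limma, and the 8 regulators became 3 and 2.

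In the astrocyte cultures, the 8 genes at least 2-fold lower became 3 by library size, 2 on log2(FPKM + 1), 3 on log2(FPKM + 0.1) and 16 at 1.5-fold, where the count follows from the lower limit. The count at least 2-fold higher was 0, and 1 by library size, on log2(FPKM + 0.1) and at 1.5-fold; the other causes were not tested. The 12 further lysosomal genes lower became 3, and the 4 higher became 7, by library size and on both FPKM scales, where the 5 glycosaminoglycan-degrading enzymes lower became 2. Values of genes near 0 in NSCs changed sign. On log2(TPM + 1) and log2(TPM + 0.1), log2 fold changes were Tpp1 -0.0381 and -0.0386, Sgsh 0.061 and 0.069, Arsb -0.054 and -0.055. Without 1 library, they ranged from -0.0499 to 0.157 for Arsb, from -0.0605 to 0.107 for Asah1, from -0.0600 to 0.0123 for Ctsl, from -0.126 to 0.392 for Galns, from -0.105 to 0.00208 for Lamp2, from -0.0012 to 0.0789 for Lipa, from -0.0499 to 0.0238 for Npc1, from -0.205 to 0.207 for Sgsh, from -0.0295 to 0.0525 for Tpp1. The 2354615 to 2588130 counts per NSC library limit genes such as Ctsh, Idua and Mitf, and 1 library per genotype limits every astrocyte value.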
